A study of Mus musculus with 4 samples.

Results

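The comparison described here sets 1 array of cells from BXD2 mice injected with sLTβR-Fc against 2 arrays of cells from BXD2 mice injected with PBS, 3 of the 4 arrays in the study. It was chosen by treatment label, and it uses every probe that carries a single gene symbol (34885 of 45281 probes, 19057 genes), of which 14255 genes lay above background on at least 1 of these arrays. BXD2 is a recombinant inbred strain of mice prone to autoimmunity resembling lupus, and the submitters describe its marginal zone macrophages as defective. sLTβR-Fc is a soluble form of the lymphotoxin β receptor joined to an antibody Fc part, and was given into a vein at 25 μg a mouse. Both groups were BXD2 mice of 2.5 months of age killed 10 hours after injection. The cells were gated on low CD11b, absent Adgre1 product, absent I-Ab and surface SIGN-R1, and each array holds the cells of 2 mice. The study's design text describes further defects of these macrophages after sLTβR-Fc. Since PBS, and no other Fc protein, served as control, blocked lymphotoxin and the presence of an Fc protein cannot be told apart. The remaining array of the study holds cells of BXD2-Ifnar-/- mice given PBS, which lack the type I interferon receptor. Its readings are given only beside single genes and in the summed level of the pancreatic list. A gene given without one may also stand apart from the controls on that array.

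Lymphotoxin β receptor is a receptor of the TNF receptor superfamily found on stromal and myeloid cells. Its ligands are membrane lymphotoxin, made by lymphocytes from the Lta and Ltb products, and LIGHT, the product of Tnfsf14. Binding relieves the TRAF and cIAP proteins' hold on the kinase NIK, which leads to processing of NF-κB2 and entry of RelB into the nucleus, the noncanonical NF-κB pathway. In the spleen this signalling maintains the chemokine-producing stroma, the marginal sinus and the macrophages of the marginal zone, which clear apoptotic cells and blood-borne particles.

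Intensities are quantile normalised and held at a floor of 111, the mean of the background limits, and a difference is the log2 reading of the sLTβR-Fc array minus the mean of the log2 control readings. A gene counts as higher or lower here when it lay on that side of both control arrays, and as 2-fold higher or lower when it differed by a log2 of at least 1 from each. By that rule of size 148 genes were 2-fold higher (1.04% of those compared) and 69 were 2-fold lower (0.484%), while 44.1% of genes lay above both controls and 31.8% below both. Readings are normalised intensities, and where a gene is given as one value against a pair, the value is the sLTβR-Fc array and the pair control 1 and control 2. Between the control arrays 31 genes stood 2-fold apart. The genes farthest above both controls included granule protein genes of eosinophils and neutrophil precursors, Il6, and genes of the early response to cell stimulation. Of the lists examined, the eosinophil, mast cell and basophil, and azurophil granule lists held 16 of the 148, the secondary granule and mature neutrophil lists 1 each, and the early response lists 13. T cell, red cell precursor and pancreatic enzyme genes were mostly below both controls. Without scaling between arrays the balance turned, with 34 genes 2-fold higher and 650 lower (4.97% of these calls higher against 68.2%). The median of all genes was then -0.20, and it was 0.16 when arrays were scaled to one median, so levels are also given relative to that shift. The shift was not the same at all intensities. Ccl17, at the floor, went from 0.016 to 0 as deposited, and Birc3 from 0.045 to -0.61. As deposited the 10 measured reference genes, described below, stood -0.19 from the median of all genes. A list's distance from that median can therefore come partly from how bright its members are. In limma, with Benjamini-Hochberg adjustment over the 11034 genes above background on all 3 arrays, 1413 genes were higher (12.8%) and 988 lower (8.95%). The spread in that fit comes from the gap between the control arrays alone, and the same fit over all 14255 genes called 0 (3383 at an unadjusted p under 0.05). Rules of size therefore carry the account. An SE comes from the fit on genes above background on all 3 arrays and holds no spread between sLTβR-Fc arrays. It is drawn almost wholly from a trend over the genes of that fit, with 198 prior degrees of freedom against 1 residual. An SE is therefore not the gene's own spread. For Fosb, control 2 minus control 1 was -0.84, beside an SE of 0.20.

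**Figure D1:**
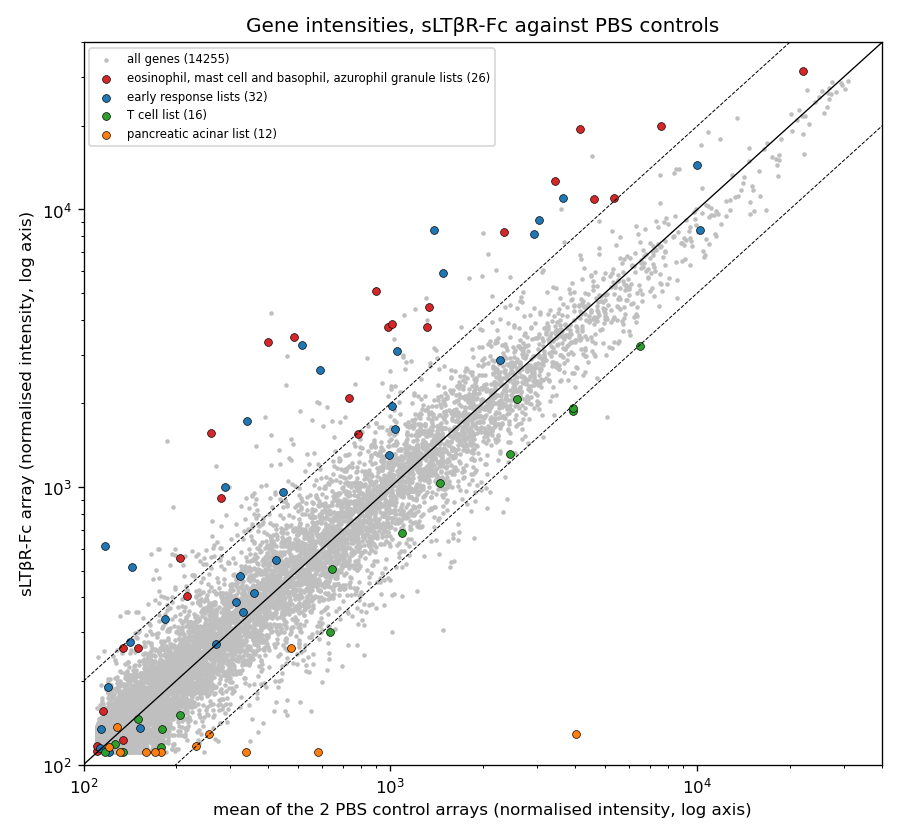
Each point is a gene, placed by its mean normalised intensity on the 2 PBS control arrays and its intensity on the sLTβR-Fc array, both on log axes. The solid line marks equality and the dashed lines 2-fold differences. Members of the granule lists (red) and the early response lists (blue) lie mostly above the solid line, T cell genes (green) and pancreatic enzyme genes (orange) mostly below.

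The label of the sort was checked against its own markers. The SIGN-R1 gene Cd209b gave 127 and 130.1 in the controls and 145 after sLTβR-Fc, close to the floor of 111 on every array. Marco, the scavenger receptor that defines these macrophages together with SIGN-R1, read 252 and 162 with PBS and 168 after sLTβR-Fc, and Msr1, Siglec1 and Cd5l were not above background. By contrast H2-Ab1 and H2-Aa, which encode the I-A chains that the gate excluded, were far above background, H2-Ab1 at 9488 against 8662 and 8305 and H2-Aa at 11192 against 14458 and 12723. Adgre1, the macrophage marker gene of the gate, read 629 and 306 in the controls and 631 after sLTβR-Fc, and Itgam, the CD11b gene, stayed at or next to the floor. Mpo, a granule enzyme of neutrophil precursors, Cd79b of the B cell receptor and Cd8b1 of cytotoxic T cells read 25201, 9386 and 5024 on control 1, all far above background. Cd8a and Cd4, however, lay close to the floor, and further T cell genes are given below. Of the 10 listed marginal zone macrophage genes, 7 were measured, and the 3 not above background were Msr1, Siglec1 and Cd5l. Cd209b was thus near background and Marco above it and highest on control 1, while transcripts of several other lineages were well above it. Further measured members of the list, such as Cd209d and Stab2, are given below. The material is therefore given no cell type name below. In such bulk material fewer cells of a type and less RNA per cell cannot be told apart.

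Of 13 measured genes of lymphotoxin and TNF ligands and receptors, 4 lay above both controls, 6 below both and 0 were 2-fold apart, at a median of -0.10. Ltbr, the receptor whose ligands the injected protein binds, was not above background on the controls and read 128 on the sLTβR-Fc array. Ltb and Lta, which encode the subunits of membrane lymphotoxin, stayed close to their controls, Ltb at 413 against 404 and 483 and Lta at 622 against 576 and 478. Tnfsf14, the LIGHT gene, read 946 and 926 in the controls and 678 after sLTβR-Fc. Cd40, a TNF receptor family member of B cells and antigen-presenting cells, was below both controls on its brightest probe at 1075 against 1912 and 1549, with further probes at a median log2 difference of -0.13. Tnf, the inflammatory member, read 129 and 134 with PBS and 199 after sLTβR-Fc.

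The noncanonical NF-κB genes had a median log2 difference of 0.039, with 2 of 9 above both controls and 3 below both. Map3k14, which encodes NIK, read 347 and 382 in the controls and 374 after sLTβR-Fc. Nfkb2, the precursor of p52, read 399.7 and 327 with PBS and 369, between them, after sLTβR-Fc. Relb, its partner, read 261 and 320.0 with PBS and 324. Traf2, an adaptor that restrains NIK, was the lowest of the list at the floor of 111 against 180.0 and 175 (at least 1.60-fold lower). For Map3k14, Nfkb2 and Relb the sLTβR-Fc reading lay between the control arrays or next to the higher one, and Traf2 lay below both. Under values as deposited the list stood -0.40 from the median of all genes, in place of near 0, where the reference genes stood at -0.19.

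Canonical NF-κB genes lay on both sides. Of 9 measured members 5 lay above both controls, 2 below both, and 2 were 2-fold higher. Nfkbiz, which encodes the nuclear inhibitor-like factor IκBζ, read 1883 and 1739 in the controls and 5669 after sLTβR-Fc (3.13-fold the control mean, log2 1.65 ± 0.18 SE). Tnfaip3, which encodes the ubiquitin-editing inhibitor A20, read 1170.2 and 1477 with PBS and 4009 (3.05-fold). Nfkbia, the IκBα gene, read 4209.6 and 4072 with PBS and 6831, with a further probe at log2 1.67. Nfkbib, which encodes IκBβ, read 349 against 180.2 and 188, and the subunit gene Rel 205 against 150.0 and 139.8. Not above both controls were the inhibitor gene Nfkbie at 466 against 471 and 463, Bcl3, of the same family, at 149 against 167 and 171, and Tnip1, whose product binds A20, at 756 against 685 and 775. The subunit gene Rela was below both at 2629 against 2749 and 2812.

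Stromal chemokines that depend on lymphotoxin in the spleen were near background. Cxcl13, the B cell follicle chemokine, was at or next to the floor on the controls and read 139 on the sLTβR-Fc array, Ccl19, a T zone chemokine, read 134 against 119.5 and 116, and Ccl21a, Madcam1 and Glycam1 were not above background on any of these arrays. Icam1, an adhesion molecule, read 862 and 906 with PBS and 922. Vcam1 was the member on which the controls themselves differed most, at 1344 and 486, and its sLTβR-Fc reading of 756 fell between them.

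Genes of eosinophil granules stood highest by the smaller of their differences from the controls. Ear6, an eosinophil-associated ribonuclease, read 380.0 and 422 in the controls and 3335 after sLTβR-Fc (8.33-fold, log2 3.06 ± 0.20 SE), and 395 on the Ifnar-/- array. Epx, eosinophil peroxidase, read 426 and 549.8 with PBS and 3473 (7.18-fold), and 436 on the Ifnar-/- array. The controls lay close together for both genes and the sLTβR-Fc reading stood far outside them. Prg2, the major basic protein of the granule core, read 3917 and 4419 with PBS and 19445 (4.67-fold), and its relative Prg3 read 1568 against 253 and 266 (6.04-fold). Ear10, a further ribonuclease of the family, read 4449 against 1429.8 and 1239. Probes of the closely related Ear family may share transcripts, and Ear1, Ear2 and Il1rl1 were not analysed here. The surface genes of eosinophils gave no such reading, as Siglecf lay at or next to the floor, Il5ra, the interleukin-5 receptor chain, read 136 and 133 with PBS and 122, and Ccr3 was not above background. Of 7 measured members 5 were 2-fold higher, at a median log2 difference of 2.22 (1.83 in the values as deposited), where the controls differed by a median of 0.074. The summed level of the list was 6652 and 7140 in the controls and 32505 after sLTβR-Fc.

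Mast cell and basophil genes were higher too. All 12 measured members lay above both controls, with 6 past 2-fold and a median log2 difference of 1.14. Cpa3, the carboxypeptidase of mast cell and basophil granules, read 706 and 1357 with PBS and 3786 (3.87-fold), and its further probes gave log2 1.16. Prss34, a basophil protease, read 8271 against 1797 and 3068, and Mcpt8, another, 10963 against 4958 and 5768. Control 2 exceeded control 1 for Cpa3 and Prss34, by 1.92-fold and 1.71-fold, and the sLTβR-Fc reading lay above both. Gata2, the transcription factor of the lineage, read 3779 against 1062 and 1636. Hdc, the enzyme that makes histamine, read 10917 against 4613 and 4628. Fcer1a, the IgE-binding chain of the high-affinity receptor, read 2087 against 535 and 1004. Il4, a cytokine that basophils secrete, read 553 against 165 and 258. On the Ifnar-/- array Gata2, Hdc and Il4 read 2326, 5898 and 410, above both controls. Cpa3 and Fcer1a read 935 and 910 there, between the controls, and Prss34 834, below both. Among proteases of connective tissue mast cells, Cma1 read 264 against 127 and 143 with log2 0.30 on further probes, Mcpt4 157 against 117 and 114, and Tpsb2 117 after sLTβR-Fc with the controls not above background. The list differed between the controls by a median of 0.47, and as deposited only 1 member, Prss34, was 2-fold higher than both.

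The azurophil granule genes of neutrophil precursors formed the next group, 5 of 7 measured members 2-fold higher and all above both controls. Elane, neutrophil elastase, read 1039 and 771 with PBS and 5095 (5.69-fold, log2 2.51 ± 0.19 SE), against 493 on the Ifnar-/- array. Prtn3, proteinase 3, read 12678 against 3985 and 2979.9. Ctsg, cathepsin G, read 19944 against 8764 and 6632. Ms4a3, a membrane protein of granulocyte precursors, read 3877 against 1249 and 819. Mpo, myeloperoxidase, read 31594 against 25201 and 19311, a log2 difference of 0.52 on its brightest probe and of 1.67 at the median of its 3 further probes. Transcription factors of granulocyte precursors were less uniform, Cebpe reading 909 against 312 and 254 but log2 0.07 on further probes, and Gfi1 1553 against 848 and 722. The list had a median of 1.69 (1.04 as deposited, with 2 members 2-fold higher), where control 2 minus control 1 had a median of -0.40.

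Genes of later neutrophil stages had medians nearer 0. Secondary granule genes had a median of 0.10, with 1 of 8 higher than each control. As deposited the list lay -0.21 from the median of all genes, where the reference genes lay at -0.19. Ltf, lactoferrin, read 2811 and 1617 with PBS and 2138, between them, and Camp, the cathelicidin, read 1555 against 2641 and 1324. Ltb4r1, the leukotriene B4 receptor, was the exception at 1544 against 459 and 363, a gene that eosinophils share. Mature neutrophil genes had a median of 0.12. S100a8, a calprotectin subunit, read 3877 and 2510.1 with PBS and 5939. Cxcr2, the neutrophil chemokine receptor, read 190.5 against 239 and 219. Csf3r, the G-CSF receptor, read 572 against 269 and 208 with log2 0.12 on further probes. Among progenitor genes Kit, the stem cell factor receptor, read 1135 against 698 and 856, and Myb, a transcription factor of immature cells, 562 against 309.6 and 254 on its brightest probe but log2 -0.18 on further ones. Cd34 stayed near background at 167.

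**Figure D2:**
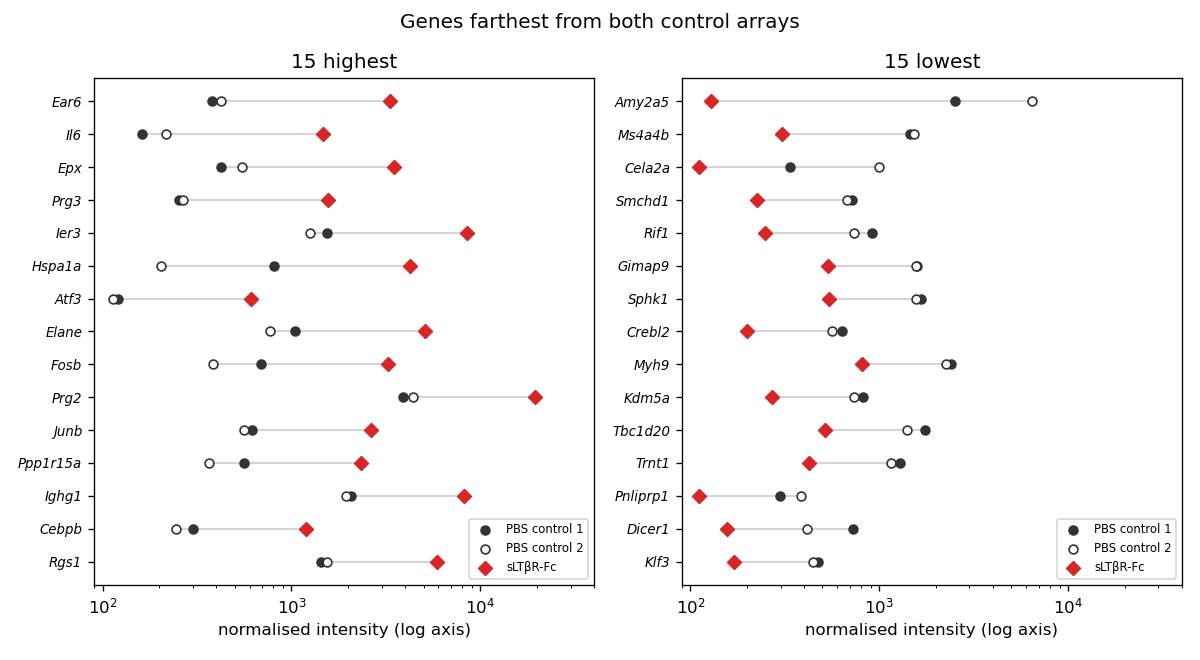
Normalised intensity on a log axis of the 15 genes farthest above and the 15 farthest below both control arrays, with each PBS control as a circle and the sLTβR-Fc array as a diamond. The control circles of Ear6, Prg3 and Prg2 nearly coincide, while those of Hspa1a, Fosb, Amy2a5 and Cela2a lie apart. In every row the diamond lies outside both circles, since the genes were chosen for that.

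Across the cell type lists the eosinophil, azurophil and mast cell and basophil medians are the only ones past a log2 of 1 in these values, and the pancreatic, red cell and T cell medians are the lowest.

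**Figure D3:**
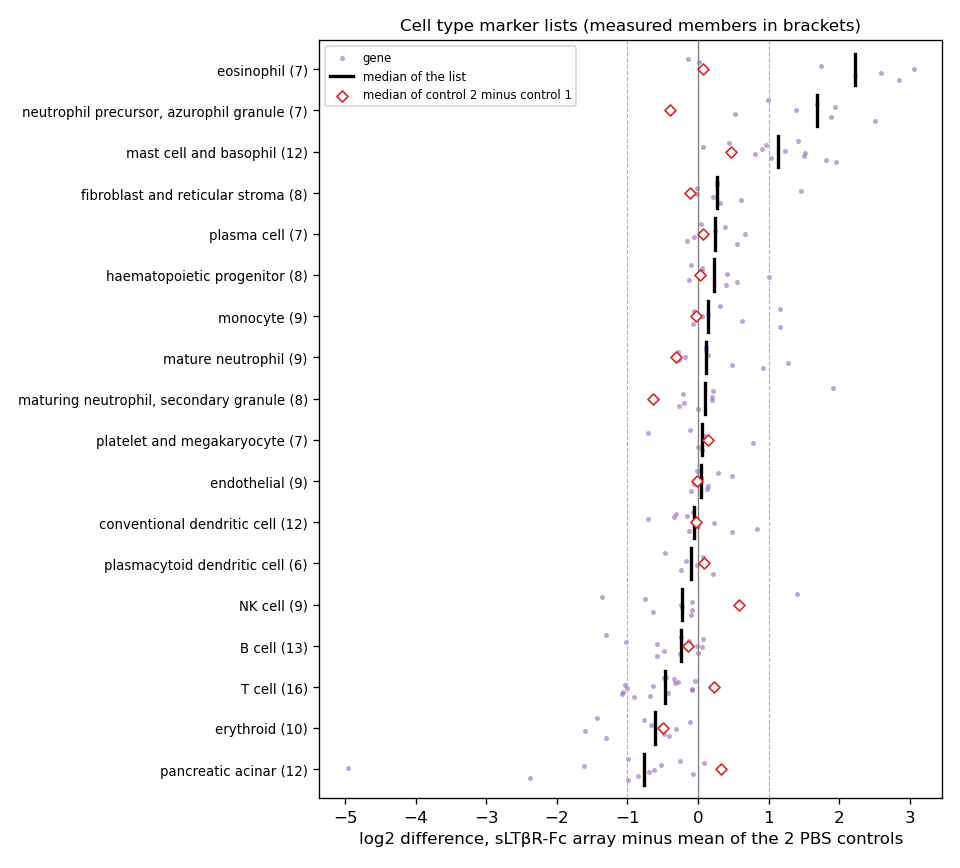
Log2 difference of each measured marker gene (points) between the sLTβR-Fc array and the mean of the PBS controls, by cell type list, with the list median as a black bar and the median of control 2 minus control 1 as a red diamond. The eosinophil bar stands at 2.22 with its diamond at 0.074, and the NK cell diamond at 0.58 lies farther from 0 than that list's bar at -0.23.

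Early response genes, transcribed within minutes of a stimulus, formed the second high group. Of 32 measured members of the AP-1, Egr, Nr4a, Klf, Dusp, Zfp36 and Ier families 26 lay above both controls, 3 below both, and 13 were 2-fold higher. Fosb, a subunit of the AP-1 factor, read 689 and 384 with PBS and 3256 (6.33-fold, log2 2.66 ± 0.20 SE), and 1629 on the Ifnar-/- array. Junb read 2644 against 622 and 559.9, Jun 517 against 166 and 125, and Fos 8131 against 3484 and 2473. On the Ifnar-/- array Junb, Jun and Fos read 1823, 244 and 6557, also above both controls. Atf3, a stress-induced relative, was next to the floor on the controls at 121 and 113 and read 614 (5.25-fold). Maff, a small Maf protein, read 190.0 against 119 and 121 and Fosl2 386 against 319 and 311, above both controls but under 2-fold. Jund and Batf were not above both, Jund reading 355 against 371 and 294 and Batf 136 against 156 and 149. The AP-1 list had a median of 1.47 (1.08 as deposited) with 5 of 9 members 2-fold higher.

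Zinc finger and nuclear receptor factors were less uniform. Egr1, an early growth response factor, read 4065 and 3291 with PBS and 10996, and 5434 on the Ifnar-/- array. Klf4, a Krüppel-like factor of myeloid cells, read 1003 against 339 and 245 but log2 0.18 on a further probe, and 580 on the Ifnar-/- array. Egr2 and Egr3 were above both controls by less, Egr2 at 547 against 413 and 435 and Egr3 at 1306 against 1061 and 927. Nr4a1, an orphan receptor induced by antigen receptor signals, was at the floor after sLTβR-Fc, but the lowest difference of any member was only log2 -0.13. This list's median was 0.54, or 0.15 from that of all genes as deposited. Feedback regulators were higher again, 6 of 14 2-fold, at a median of 0.96. Ier3, a survival gene that responds to NF-κB, read 1534 and 1255 with PBS and 8469 (6.10-fold), and 3119 on the Ifnar-/- array. Dusp1, a phosphatase that switches off stress kinases, read 9203 against 3047 and 3030.1, and 8271 on the Ifnar-/- array. Zfp36, which speeds the decay of cytokine mRNAs, read 3085 against 1285 and 861. Ier2, of the same early class, read 1725 against 493 and 237. Rgs1, a brake on chemokine receptor signals, read 5902 against 1425 and 1546. On the Ifnar-/- array Zfp36 and Rgs1 read 2639 and 3641, above both controls, and Ier2 435, between them. Zfp36l1, a relative of Zfp36, was below both controls at 8419.8 against 9995 and 10473, and Btg2 and Ier5 lay near their control readings.

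Upstream sequence shows what letters the starts of these genes carry. The promoter table of RefSeq (GRCm38.p6) held 21 of the 27 genes that were 2-fold higher in the early response, canonical NF-κB, cytokine, chemokine, stress response and heat shock lists, and 58 of the other measured members. In the 250 bases before the start site, searched on both strands, the NF-κB consensus was found in 7 of the 21 genes, in 9 of the 58 others and in 4.46% of all genes of the table (3.90% of promoters). The cAMP response element TGACGTCA was found in 2 of the 21, 2 of the 58 and 1.77% of all genes, and the CArG box bound by serum response factor in 1, 2 and 1.62%. The AP-1 site TGANTCA was found in 3, 6 and 7.82%. The NF-κB matches were in Il6, Ier3, Fosb, Fos, Tnfaip3, Ccl9 and Cxcl2, and overlapping matches in a gene were counted once. Shown here are 5 of the genes with a match, all 2-fold higher, each in lower case 5′ to 3′ along the gene up to the base before the start site, with matches in capitals. They carry an NF-κB consensus 44 bases before the start and an AP-1 site 249 bases before it (Il6, chr5:30012864-30013113, plus strand), an NF-κB consensus at 92 bases (Ier3, chr17:35821463-35821712, plus strand), a cAMP response element at 143 bases (Dusp1, chr17:26508473-26508722, minus strand), one at 12 bases (Ppp1r15a, chr7:45526269-45526518, minus strand) and a CArG box at 58 bases (Zfp36, chr7:28379229-28379478, minus strand). These matches are descriptions of sequence and were not tested as binding sites.
Il6: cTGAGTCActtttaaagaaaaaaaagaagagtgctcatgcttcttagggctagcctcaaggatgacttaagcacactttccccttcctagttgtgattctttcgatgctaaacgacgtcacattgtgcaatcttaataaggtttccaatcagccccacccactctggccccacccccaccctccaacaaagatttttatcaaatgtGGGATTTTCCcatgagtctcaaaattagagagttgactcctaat
Ier3: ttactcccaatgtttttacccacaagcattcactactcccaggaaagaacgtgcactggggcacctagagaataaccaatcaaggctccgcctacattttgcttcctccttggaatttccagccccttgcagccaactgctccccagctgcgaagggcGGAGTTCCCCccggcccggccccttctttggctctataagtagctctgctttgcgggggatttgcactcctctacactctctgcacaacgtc
Dusp1: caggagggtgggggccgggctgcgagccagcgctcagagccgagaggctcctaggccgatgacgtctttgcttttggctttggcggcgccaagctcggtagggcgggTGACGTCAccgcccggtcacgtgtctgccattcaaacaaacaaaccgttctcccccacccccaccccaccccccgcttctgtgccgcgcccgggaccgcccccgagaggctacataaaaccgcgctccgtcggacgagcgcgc
Ppp1r15a: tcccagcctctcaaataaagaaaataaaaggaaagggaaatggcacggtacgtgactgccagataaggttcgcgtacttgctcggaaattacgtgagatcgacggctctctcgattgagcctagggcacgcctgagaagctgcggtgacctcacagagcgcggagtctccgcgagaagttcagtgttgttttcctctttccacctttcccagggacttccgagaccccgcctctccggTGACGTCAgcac
Zfp36: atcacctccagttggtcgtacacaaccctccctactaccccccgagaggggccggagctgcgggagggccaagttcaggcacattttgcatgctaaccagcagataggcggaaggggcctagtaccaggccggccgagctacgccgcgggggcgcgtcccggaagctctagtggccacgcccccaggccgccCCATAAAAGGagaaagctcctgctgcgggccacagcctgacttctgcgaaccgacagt

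Among cytokines the readings were concentrated in a few genes. Il6, the interleukin of acute inflammation, read 162 and 216 in the controls and 1460.1 after sLTβR-Fc (7.81-fold, log2 2.97 ± 0.22 SE), second of all genes by the same ranking, and 603 on the Ifnar-/- array. Osm, oncostatin M, a relative of interleukin-6, read 3166 against 1315 and 1456, with log2 0.16 on a further probe. On the Ifnar-/- array Osm read 3396, above its sLTβR-Fc reading. Il1b, the inflammasome product, read 890.3 and 359.7 on the controls, which differed by 2.48-fold, and 777 between them. Above both controls but under 2-fold were Il10 at 209.9 against 139.5 and 136, Csf1 at 271 against 143 and 192 and Csf2 at 232 against 135 and 142. Of 14 measured cytokines 10 lay above both controls and 3 were 2-fold higher, at a median of 0.53, but only 1, Il6, kept 2-fold as deposited or under median scaling.

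In the CC chemokine family 3 of 10 measured members, Ccl3, Ccl4 and Ccl9, were 2-fold higher. Ccl3 read 320.3 and 475 with PBS and 1792 (4.59-fold), and Ccl4 15524 against 4039.6 and 5121 (3.41-fold) with log2 1.68 on its further probe. Ccl9, a chemokine of the myeloid lineage, read 4177 against 879 and 1395. Control 2 was above control 1 for all 3, and the Ifnar-/- array read 854, 8971 and 2554. Ccl5, a product of T and NK cells, was below both controls at 5069 against 7336 and 8012. Ccl11, an eosinophil attractant, was near background at 155 and log2 -0.017 on its further probe, and Ccl24, another, was not above background. Cxcl2, a neutrophil attractant, read 599 against 247 and 126, and Cxcl9 and Cxcl10, induced by interferons, read 169 and 114, as on the controls.

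Stress genes were split by branch. Hspa1a and Hspa1b, the inducible heat shock proteins, gave 811 and 205 (Hspa1a) and 885 and 239 (Hspa1b) with PBS and 4248 and 2974 after sLTβR-Fc. The controls stood 3.97-fold apart for Hspa1a, further probes of these genes gave log2 0.22 and 0.12, and their near-identical transcripts may not be separated. Under the median over probes 0 heat shock genes were 2-fold higher. Hsph1, a cytosolic co-chaperone, read 3709 against 1914 and 2013, while Hsp90aa1 and the mitochondrial chaperone Hspd1 lay below both controls, Hsp90aa1 at 3641 against 7416 and 4856 and Hspd1 at 5564 against 8411 and 8806. In all 7 of 13 members lay above both controls and 6 below both.

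In the integrated stress response Ppp1r15a, the subunit that restores translation, read 564 and 368 with PBS and 2336 (5.13-fold, log2 2.36 ± 0.20 SE). Cebpb, a transcription factor of the acute phase response, read 1189 against 299.9 and 245 (4.39-fold). Chac1, which degrades glutathione, read 522 against 195 and 189. On the Ifnar-/- array Ppp1r15a and Cebpb read 791 and 813, above both controls, and Chac1 161, below both. Ddit3, which encodes CHOP, read 439 against 206 and 227, and Atf4 5024 against 3171 and 3325 with log2 0.029 on its further probe. Of the 12 measured members 7 lay above both controls and 4 below both. Among the lower ones were Asns, asparagine synthetase, at 881 against 1603 and 1628, and Trib3 at 133 against 138 and 138. This list's median of 0.33 thus averages genes on both sides. Chaperones of the endoplasmic reticulum had a narrower range, 12 of 15 higher than each control and a median of 0.45 (-0.039 as deposited, where all genes stood at -0.20). Dnajb9, a co-chaperone that Xbp1 induces, read 2375 against 1021 and 859, and its further probe gave log2 1.02. Xbp1 itself, the factor of secretory cells, read 4689 against 2355 and 2985, and Creld2 was lower at 1987 against 3413 and 2424.

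**Figure D4:**
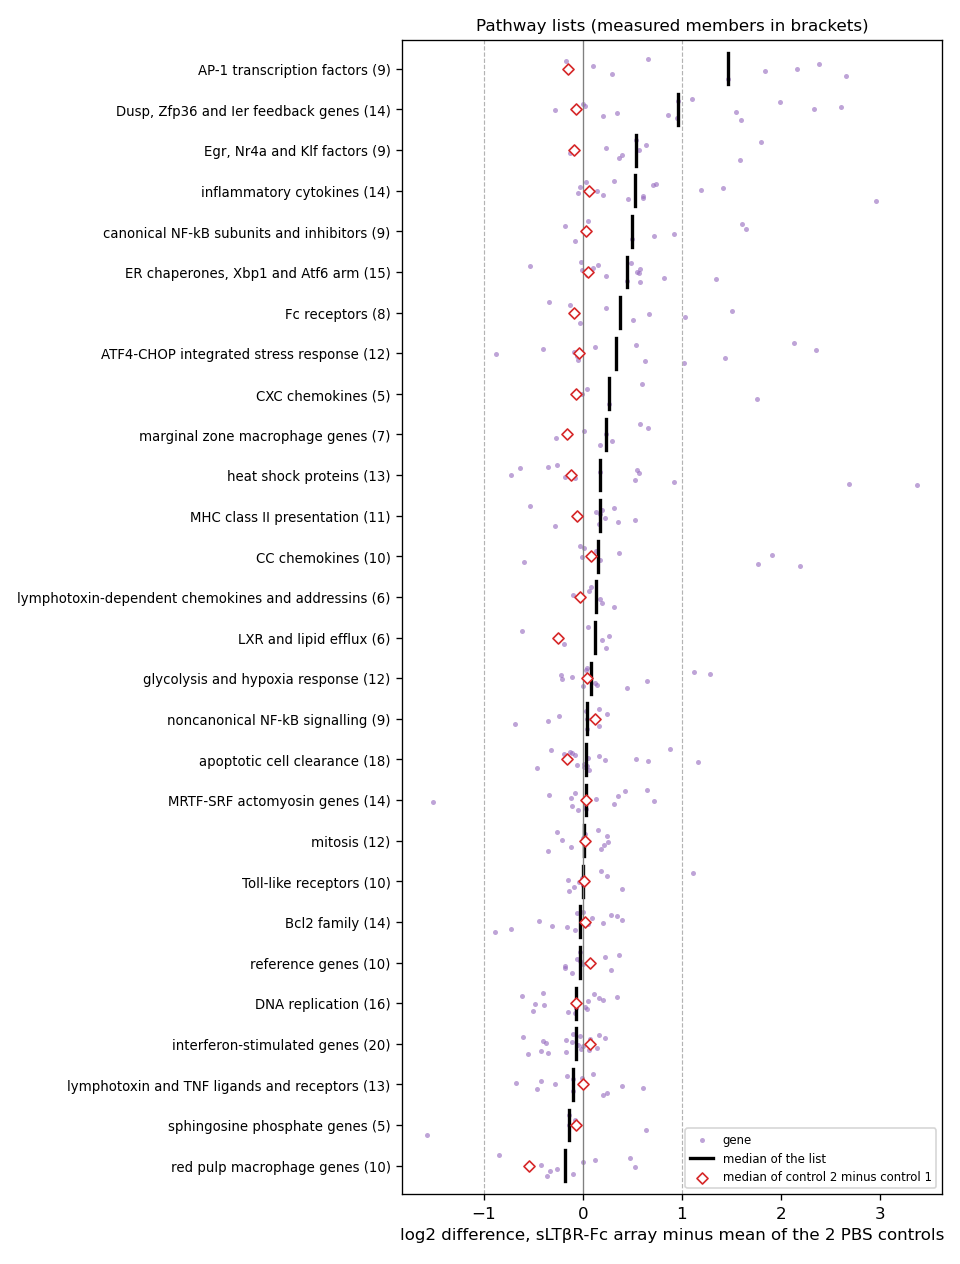
Log2 difference of each measured gene (points) between the sLTβR-Fc array and the mean of the PBS controls, by pathway list, with list medians as black bars and the median of control 2 minus control 1 as red diamonds. The AP-1 and feedback lists hold the highest medians, 1.47 and 0.96, and the heat shock list has a median of 0.17 with Hspa1a and Hspa1b far to the right.

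T cell genes were lower as a group, 15 of 16 measured members below both controls and 0 above, at a median of -0.47, with 0 2-fold below each control. Cd3d, Cd3e and Cd3g, the CD3 chains of the T cell receptor, were lower, Cd3d at 1313 against 2178 and 2781, Cd3e at 684 against 971 and 1229 and Cd3g at 302 against 572 and 701. Lat, the adaptor below the receptor, read 1883 against 3674 and 4205, and Bcl11b, a factor of T cell identity, 1927 against 3702 and 4209.6 with log2 -0.75 on further probes. Cd8b1, the CD8 β chain, read 3226 against 5024 and 8411 but log2 0.10 on further probes. Taking the median of all Cd8b1 probe readings on each array gave 0.80, on the other side. Control 2 was the higher control for the list, by a median of 0.22, and the sLTβR-Fc reading lay below control 1 as well. Relative to all genes the list stood at -0.80 as deposited and -0.73 under median scaling, where the reference genes stood at -0.19 and -0.12. The summed level of its members was 21399 and 27872 with PBS and 13837 after sLTβR-Fc. Cd4 and Cd8a lay close to the floor on all 3 arrays.

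B cell genes were lower by less, 9 of 13 below both controls at a median of -0.24, where the controls differed by -0.14. Bank1, a scaffold of B cell receptor signals, read 2452 and 1748 with PBS and 837 (2.47-fold lower). Cr2, the complement receptor of marginal zone and follicular B cells, read 456 against 1007 and 845 (2.02-fold lower). Cd79b of the receptor complex read 6305 against 9386 and 9488, with log2 -0.087 on its further probe, and Ebf1 and Spib, lineage factors, lay between or next to their controls. Of 7 plasma cell genes 5 lay above both controls, Jchain, the joining chain of secreted antibody, reading 862 against 688 and 502 and Irf4 883 against 540.3 and 571. Ighg1, the constant region of the IgG1 heavy chain, stood among the highest of all genes at 8235 against 2063 and 1954, and 1262 on the Ifnar-/- array.

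NK cell genes lay on both sides. Eomes, a T-box factor of NK and memory T cells, was 2-fold lower at 644 against 1395 and 1968, with log2 -0.33 on a further probe, whereas Nkg7, a granule protein of cytotoxic cells, was 2-fold higher at 2931 against 867 and 1403. On the Ifnar-/- array Eomes read 1573, between the controls, and Nkg7 2678, above both. The controls differed on this list by a median of 0.58, more than its median difference of -0.23. Dendritic cell genes were mixed, Batf3 reading 131 and 153 with PBS and 253 and Ccr7, the receptor for lymph node homing, 1117 against 1937 and 1719, and the conventional and plasmacytoid medians were -0.053 and -0.10.

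Red cell precursor genes were lower, 7 of 10 below both controls and 3 past 2-fold, with a median difference of -0.61. Klf1, the master factor of the lineage, read 1137 and 898 with PBS and 409 (2.47-fold lower). Ermap, a membrane protein of erythroid cells, read 151 against 644 and 327. Car2, carbonic anhydrase, read 155 against 485 and 358, and its further probe gave log2 -1.06. On the Ifnar-/- array Klf1, Ermap and Car2 read 380, 164 and 153, also below both controls. Hba-a1, α-globin, and Slc4a1, the band 3 anion exchanger, lay between the controls, Hba-a1 at 1059 against 2331 and 854 and Slc4a1 at 801 against 2322 and 701. Control 1 was the higher control for most members, by a list median of -0.50 for control 2 minus control 1, so the control arrays differ among themselves by a size near the list's median.

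Enzymes of the exocrine pancreas, an organ next to the spleen, included the gene farthest below both controls. Amy2a5, pancreatic amylase, read 2513 and 6416 in the controls and 129 after sLTβR-Fc (31.2-fold lower), and 12153 on the Ifnar-/- array. Its further probe gave log2 -0.10, and the median of its probe readings on each array gave -2.53 in place of -4.96. Cela2a, an elastase, read 111 against 337 and 995, and Pnliprp1, a lipase relative, read 299 and 383 on the controls and was not above background after sLTβR-Fc (at least 3.05-fold lower). Of 12 measured members 10 lay below both controls. Control 2 was higher than control 1 for Amy2a5 by 2.55-fold and for Cela2a by 2.95-fold, so these transcripts varied between arrays of one treatment. Summed over the list, intensity was 4801 and 9882 with PBS and 1555 with sLTβR-Fc, against 21175 in the Ifnar-/- cells, and their part in other results was not tested.

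Of 7 measured marginal zone macrophage genes 5 lay above both controls and 0 were 2-fold apart, at a median of 0.24 (control 2 minus control 1 -0.16), and -0.11 as deposited. Cd209d, a lectin related to SIGN-R1, read 216 and 306 with PBS and 315, against 1304 on the Ifnar-/- array. Nr1h3, the liver X receptor α on which these macrophages depend, was near background at 179 against 169.9 and 136, and Stab2, a scavenger receptor, read 487 against 402 and 237. In apoptotic cell clearance 7 of 18 measured members lay above both controls, where 44.1% of all genes did, and 5 below both. The median was 0.031 and 0 were 2-fold apart. Axl, a receptor kinase, read 1016 and 436 with PBS and 485, between its controls. Stab1, another scavenger receptor, was above both controls at 943 against 488 and 361, with log2 0.43 on further probes, and Tgm2, transglutaminase 2, read 1307 against 871 and 580.1, though its further probe gave log2 0.045. Red pulp macrophage genes had a median of -0.18, with the controls -0.54 apart, and Slc40a1, which exports iron, lay between its controls at 1709 against 2913 and 1594. Blvrb, biliverdin reductase B, which erythroid cells also make, lay below both controls at 1526 against 2881 and 2623.

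The Fc receptor list, which takes in the IgE-binding Fcer1a as well as IgG receptors, had 4 of 8 members above both controls. Fcer1a, given above with the basophil genes, was the 1 member 2-fold higher than each control. Fcgr3, an activating low-affinity receptor, read 317 and 374 with PBS and 705 (2.05-fold), and Fcgr2b, the inhibitory one, 501 against 331 and 373 with log2 0.14 on further probes. Fcgr4 read 1057 against 862 and 509.6, and Fcgr1, the high-affinity receptor, stayed near the floor. Of 10 measured genes of the Toll-like receptor list 4 lay above both controls and 2 below both, at a median of -8.3e-05. The highest of that list was Cd14, a lipopolysaccharide co-receptor of monocytes, at 338 against 176 and 138. Of 9 measured monocyte genes 6 lay above both controls and 3 below both. Ly6c1 read 2259 against 998 and 1012, and F13a1, a monocyte transglutaminase, 554 against 306 and 199. Ccr2 and Cx3cr1 lay at or near their control readings.

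Interferon-stimulated genes, which mark type I interferon signalling, had 2 of 20 above both and 8 below both at a median of -0.073. Ifit3 and Usp18 lay next to the lower control, Ifit3 at 348 against 346 and 567 and Usp18 at 356 against 352 and 598. Cmpk2 was the lowest at 425 against 681 and 617. Class II antigen presentation had a median of 0.17, but -0.26 relative to all genes as deposited, where the reference genes stood at -0.19. Within it H2-DMa, a peptide loader, read 1826 against 1193 and 1336. Mitotic genes (median 0.016) and DNA replication genes (median -0.067) held 0 members 2-fold apart, and Plk1, a mitotic kinase, read 1155 against 1352 and 1158. In the Bcl2 family the survival genes Mcl1 and Bcl2 were below both controls, Mcl1 at 3370.1 against 5527 and 5605 and Bcl2 at 1112 against 2149 and 1979 with log2 -0.029 on 6 further probes, and Bbc3, which encodes the death factor PUMA, read 829 against 641 and 621. Vegfa, the vascular growth factor, was the single hypoxia gene 2-fold higher, at 841 against 357 and 335, with log2 0.54 on a further probe. The 10 measured reference genes, such as Gapdh and Tbp, had a median of -0.028. Further list medians were -0.14 for sphingosine phosphate genes, 0.036 for endothelial, 0.057 for platelet and 0.086 for glycolysis genes. They were 0.12 for lipid efflux, 0.14 for monocyte and 0.27 for fibroblast genes.

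Cytoskeletal targets of MRTF and SRF, factors that sense the state of actin, had a median of 0.029, with 8 of 14 above both controls. Tagln2, an actin-binding protein, read 2132 against 1239 and 1349, and Zyx, zyxin, 5155 against 3333 and 4382. Myh9, nonmuscle myosin, was 2-fold lower on its brightest probe at 812 against 2395 and 2252, but its 2 further probes lay at log2 0.41, and taking the median of all its probe readings on each array gave 0.86, on the other side. Sphk1, sphingosine kinase, likewise read 1671 and 1555 with PBS and 541, with log2 0.056 on a further probe. On the Ifnar-/- array the brightest probes of Myh9 and Sphk1 read 324 and 395, also below both controls.

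This disagreement between probes of one gene was general among the 2-fold lower genes. Of 69 such genes 42 had a further probe above background. These shared the sign of the brightest probe in 36 genes and reached 50% or more of its size in 3, and their median was -0.22 against -1.33 for the brightest. For the 148 higher genes 64 had one, with the sign shared in 54 and 50% or more of the size in 20. Their medians were 0.33 against 1.36. Both groups were called on the brightest probe, a choice that by itself favours a larger difference there. No such count was made over all genes with several probes. The 3 lower genes whose further probes bore 50% or more of the size were Ms4a4b, Aqp1 and Car2. Ms4a4b, a membrane protein of T cells, read 1453 and 1519 with PBS and 305 (4.87-fold lower), with log2 -1.20 on further probes. Rif1, a factor of DNA repair and replication timing, read 249 against 912 and 734 but log2 -0.32 on its further probe. Dicer1, the microRNA-processing enzyme, read 156 against 726 and 417 but log2 0.073 on further probes. Kdm5a, a histone demethylase, read 269 against 823 and 739 but log2 -0.29 on further probes. Smchd1, a chromatin protein of the inactive X, read 227 against 717 and 674 but log2 -0.20 on further probes. Crebl2 read 199 against 635 and 563 but log2 -0.041 on its further probe. Trnt1, a transfer RNA enzyme, read 424 against 1282 and 1155, with log2 -0.45 on its further probe. Of the remaining lowest genes Gimap9, a lymphocyte GTPase, read 536 against 1588 and 1573. Tbc1d20, a Rab regulator, read 515 against 1753 and 1405. Klf3, a Krüppel-like repressor, read 170.3 against 476 and 445. None of these 3 has a further probe above background. The Ifnar-/- array, from mice given PBS, was also below both controls for Ms4a4b, Rif1, Kdm5a, Crebl2 and Trnt1, at 412, 147, 273, 190 and 452. It was likewise lower for Gimap9, Tbc1d20 and Klf3, at 762, 833 and 260. For Smchd1 and Dicer1 it read 675 and 532, between the controls. Which transcripts the probes cover was not examined, and a cause for the disagreement was not tested.

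**Figure D5:**
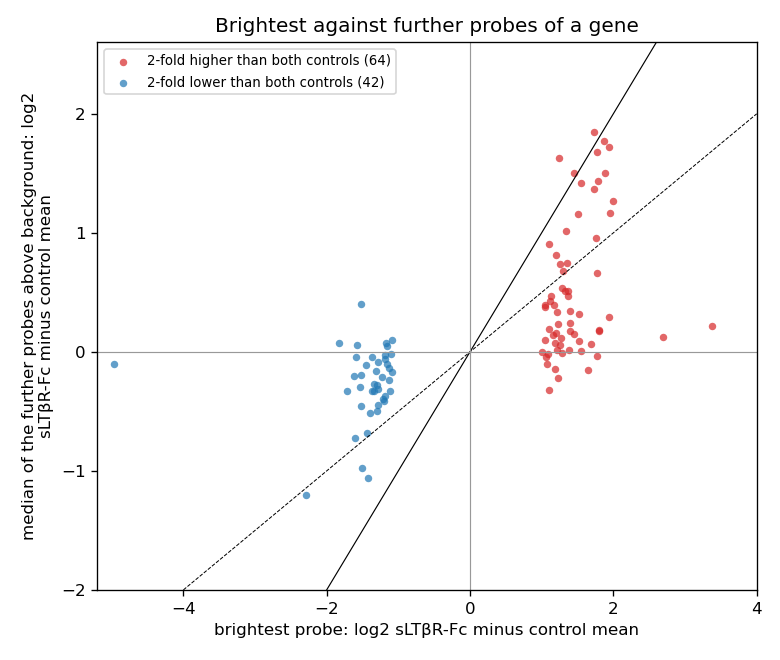
For each gene 2-fold apart from both controls that has a further probe above background, the log2 difference of its brightest probe is set against the median difference of its further probes. The solid line marks equal differences and the dashed line 50% of the size. Of the lower genes (blue, 42) 3 reach the dashed line, while 20 of the higher genes (red, 64) lie on or above the dashed line.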

How the data were processed

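Total RNA extracted with Trizol was converted to biotin-labelled cRNA and hybridised to Illumina single-colour arrays, per the labels' protocols, and the submitters' processing notes name GenomeStudio 2011.1. The authors deposited 1 linear intensity per probe and array (45281 probes). Any background subtraction or scaling by them is not stated in the labels, and the values show neither (upper quartiles 188, 179 and 146 on control 1, control 2 and sLTβR-Fc). Probes were named through the platform's annotation (18 have several symbols and 10378 none), and 18992 of 19057 symbols were found in the RefSeq table by gene identifier.

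A probe was above background past the 95% point of noise fitted to the values below the commonest intensity, which 53.8%, 53.1% and 52.6% passed. All 4 arrays were quantile normalised, floored at 111 and put on log2. Each gene took its probe with the highest mean. A gene not above background on one side has only a bound, against the lowest signal above background. limma 3.58.1 (R 4.3.3, eBayes with trend) used 1 residual degree of freedom, from the control arrays. The labels do not say whether these hold different mice, so their spread may be technical. Named genes are the 15 farthest on each side, members of 28 pathway and 19 cell type lists, and the sort gate genes. Of 555 list genes 469 were measured. The genes, lists and rules were chosen with earlier results of these data known. The number of arrays limits precision. Alternatives were no or median scaling, normexp background correction, other floors and filters, the median over probes, other thresholds and leaving out a control.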

Additional observations from a re-analysis of the deposited data

Results flagged for a closer look

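Probes without exactly 1 gene symbol took no part in the comparisons above, and some of them also stood apart. Of 5402 such probes above background on at least 1 of the 3 arrays, 23 were 2-fold higher than both controls (0.426%) and 27 were 2-fold lower. The highest, which the annotation table used here leaves unnamed, read 294 and 645 with PBS and 4202 after sLTβR-Fc. None of these probes is given a gene here.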

How the results depend on the processing

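The call of 148 genes 2-fold higher became 34 in the values as deposited (all 34 among the 148), 474 at a 1.5-fold threshold and 38 at 3-fold, and the 69 lower genes became 650, 347 and 3. With median scaling 130 genes were lower, with the median over probes 35, and without a control array between 108 and 150, against 196 to 215 higher. limma's 1413 higher and 988 lower genes became 0 and 0 over all genes, 241 and 157 without the trend and 181 and 4652 as deposited, and median scaling left 77 lower. Among lists, the members 2-fold higher fell as deposited to 1 (mast cell and basophil), 2 (azurophil granule) and 1 (cytokines, also under median scaling), and to 0 heat shock genes with the median over probes. Members below both controls fell to 9 (T cell) and 5 (pancreatic) with a floor 2 times as high, and the pancreatic count was also 5 among genes above background on all 3 arrays. Of the 70 named or listed genes past 2-fold, 45 stayed past it as deposited, 60 under median scaling and 49 with the median over probes, where Myh9 turned to 0.86. The cause of these differences was not tested. The counts for eosinophil, AP-1 and feedback genes stayed within 1.5 times under each setting run on them. No paired analysis was possible because the labels pair no arrays and the sLTβR-Fc group holds 1 array. Leaving out a control leaves limma no residual degree of freedom, so it was not run.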

Other observations

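Genes outside the lists were looked at after their values were seen, so they are examples and carry no count. Readings are again the sLTβR-Fc array against control 1 and control 2. Further genes of granulocytes and their precursors stood 2-fold above both controls. Ear3, an eosinophil ribonuclease, read 1854 and 2325 with PBS and 6912 after sLTβR-Fc, with log2 1.84 on further probes. Fcnb, a ficolin of myeloid precursors, read 575 against 171 and 162, with 1.44 on a further probe, and Anxa3, an annexin of neutrophils, 4394 against 1355 and 1062, with 1.77. Trem3, a myeloid receptor, read 1939.5 against 784 and 495, Hk3, a myeloid hexokinase, 1885 against 583 and 442, and Mcpt1, a mucosal mast cell protease, 844 against 221 and 172. Alas1, which starts heme synthesis in cells other than red cell precursors, read 10056 against 3998 and 3226, while the erythroid form Alas2 read 197 against 446 and 171. Hp, haptoglobin, read 2913 against 1102 and 639 on its brightest probe but log2 0.18 on further ones.

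Activation genes of lymphocytes were on both sides. Cd69, an early activation marker, read 1695 and 2342 with PBS and 5738, and Ifng, interferon γ, 951 against 353 and 366, with further probes at log2 0.32 and 0.34. H1f2, a linker histone, read 4788 against 1219.5 and 1392, and 4719 on the Ifnar-/- array. Lower were Gimap5, a relative of Gimap9, at 639.5 against 1327 and 1388, Slamf6, a receptor of T, NK and B cells, at 564 against 1374 and 1214, Ly9 of the same family at 317 against 759 and 881, and Tnfsf8, the CD30 ligand, at 131 against 343 and 397. Further probes of Gimap5, Slamf6 and Ly9 lay at 0.10, -0.41 and -0.039. Aqp1, a water channel of red cells and vessels, read 1781 against 6028 and 4273, with -0.97 on further probes.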
